A study of Mus musculus with 16 samples.

Results

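Integrins are membrane receptors made of 1 α and 1 β subunit that tie a cell to the extracellular matrix and to latent growth factors. In the basal epidermis the α6β4 heterodimer sits in the hemidesmosome, and the genes described here are 10 integrin subunits that work outside it: Itga2, Itga3, Itga5, Itga9, Itgav, Itgb1, Itgb3, Itgb5, Itgb6 and Itgb8. They were chosen by name and matched to Ensembl identifiers, and all 10 were among the 32989 gene identifiers of the deposited count table. All except Itga5, that is 9 genes, averaged 5 or more counts over the 16 libraries and were tested.

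The libraries came from hair follicle stem cell (HFSC) organoids of 4 wild type C57BL/6J mice, grown for 2 weeks in the 3D–3C culture, in which epidermal cells are embedded in Matrigel, a basement membrane extract. Cultures of each mouse were left as controls (untreated) or supplemented with the acetylated polyamine N1-acetylspermidine (N1-AcSpd) for 72 h, and 2 fractions were then sorted, α6+/CD34− cells (progenitors) and α6+/CD34+ cells (HFSCs). This gave 4 groups of 4 libraries, in which mice 1 to 4 each contributed 1 library to every group. Both fractions were sorted for α6 integrin on the surface, and the whole panel was wild type. Per the study's methods, skin came from mice of both sexes with follicles in telogen, the resting phase, and ages are given as ranges of postnatal days rather than per animal. For concentrations the methods point to the figures, and none is taken from there.

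Each library counted the 3′ ends of transcripts as unique molecular identifiers (UMIs), so that a molecule copied in amplification counts once. Library totals ran from 15480075 to 29074855 UMIs, and 22142 to 24247 genes had at least 1 UMI. Levels are given as CPM, which is the count scaled to a common library size after TMM normalization, and differences as log2 fold changes with their standard error (SE). A gene was called when its Benjamini-Hochberg adjusted p was under 0.05 in edgeR's quasi-likelihood test over the 19049 genes tested. The sort marker Cd34 stood between 2.88 and 3.65 CPM in the CD34− libraries and between 43.4 and 64.1 CPM in the CD34+ libraries, although its 8429 counts cannot be told apart from the 8166 of the antisense model Gm16897. All 5 keratinocyte markers were detected in every group, with a summed level of 5960 to 6980 CPM. The 7 fibroblast markers summed to 0.171 to 1.6 CPM, the 5 immune markers, of which 1 to 3 were at 0 in each group, to 0.817 to 3.38 CPM and the 6 melanocyte markers to 10.8 to 15.1 CPM. Most of the melanocyte sum was Pmel, at group means of 9.87 to 10.7 CPM. Its 3453 counts cannot be told apart from the 6189 of Dgka, which overlaps it on the opposite strand. The melanocyte marker Sox10 stood at group means of 1.64 to 2.39 CPM, with 694 counts beside 175 of the overlapping Gm4675. Of the 3 endothelial markers, Kdr and Tek together reached at most 0.514 CPM, whereas Pecam1 averaged 1756 to 1987 CPM per group. That is above the keratinocyte marker Krt5 (1089 to 1164 CPM), and whether these counts come from Pecam1 transcripts was not tested.

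Itgb1 encodes the β1 subunit, the common partner of α2, α3, α5, α9 and αv. The heterodimers α2β1 and α3β1 bind collagen and laminins, α5β1 binds fibronectin, and α9β1 binds tenascin-C among other ligands. The αv subunit, encoded by Itgav, pairs with β1, β3, β5, β6 and β8. These receptors recognise the RGD motif of fibronectin, vitronectin, osteopontin and the propeptide of latent TGF-β, and αvβ6 and αvβ8 are known activators of latent TGF-β.

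For 1 of the 10 genes the counts cannot be taken as a measure of the gene itself. Itga9 (ENSMUSG00000039115, chromosome 9, 118606690 to 118901003, plus strand, GRCm38) held 23171 counts over the 16 libraries. Gm10157, a processed pseudogene that lies on the opposite strand within an intron of Itga9, held 23159, and the counts of both were equal in 14 libraries. Only 12 counts, 0.0518% of the total, went beyond those of Gm10157, 5 in the untreated CD34− library of mouse 2 and 7 in the untreated CD34+ library of mouse 4. Gm10157 is in turn 98.251% identical to the translation initiation factor transcript Eif1 over 343 aligned bases, with 6 differing positions. Its first 240 aligned bases (9:118837716-118837955 on GRCm38, minus strand) are shown because the counts of Itga9 equal those of this pseudogene. The table does not say where within it the tags lie. Capitals mark the 2 bases that differ from Eif1, 1 of which has no counterpart in the Eif1 transcript.
Gm10157: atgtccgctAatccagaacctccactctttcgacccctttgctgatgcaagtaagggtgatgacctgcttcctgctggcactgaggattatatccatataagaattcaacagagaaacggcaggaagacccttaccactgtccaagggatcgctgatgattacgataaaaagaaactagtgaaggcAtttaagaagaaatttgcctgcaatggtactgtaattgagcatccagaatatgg

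Across libraries the counts of Itga9 ran from 1053 to 2302, except in the untreated CD34+ library of mouse 1. There Itga9 and Gm10157 both stood at 0 while Eif1 had 11639 counts. Both were empty entries of the deposited count table, read as 0. Whether such an entry means no count or a missing value is not given. The fitted values of Itga9 rest on counts shared with Gm10157, and tags of Itga9, Gm10157 and Eif1 cannot be told apart in this table. Other transcripts also matched Gm10157 closely, such as the pseudogene Gm16378 (97.376% over 343 bases, 21851 counts). Which of these transcripts the tags came from was not tested. That signal was called in neither cell type effect with all 16 libraries, and in both after the library at 0 was left out (-0.226, adjusted p = 0.0135, in untreated and -0.297, adjusted p = 0.00121, in N1-AcSpd cells, edgeR), or the whole of mouse 1 (-0.182 and -0.258). The plot of Itga9 counts against Gm10157 shows every library on or next to the line of equal counts.

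**Figure D1:**
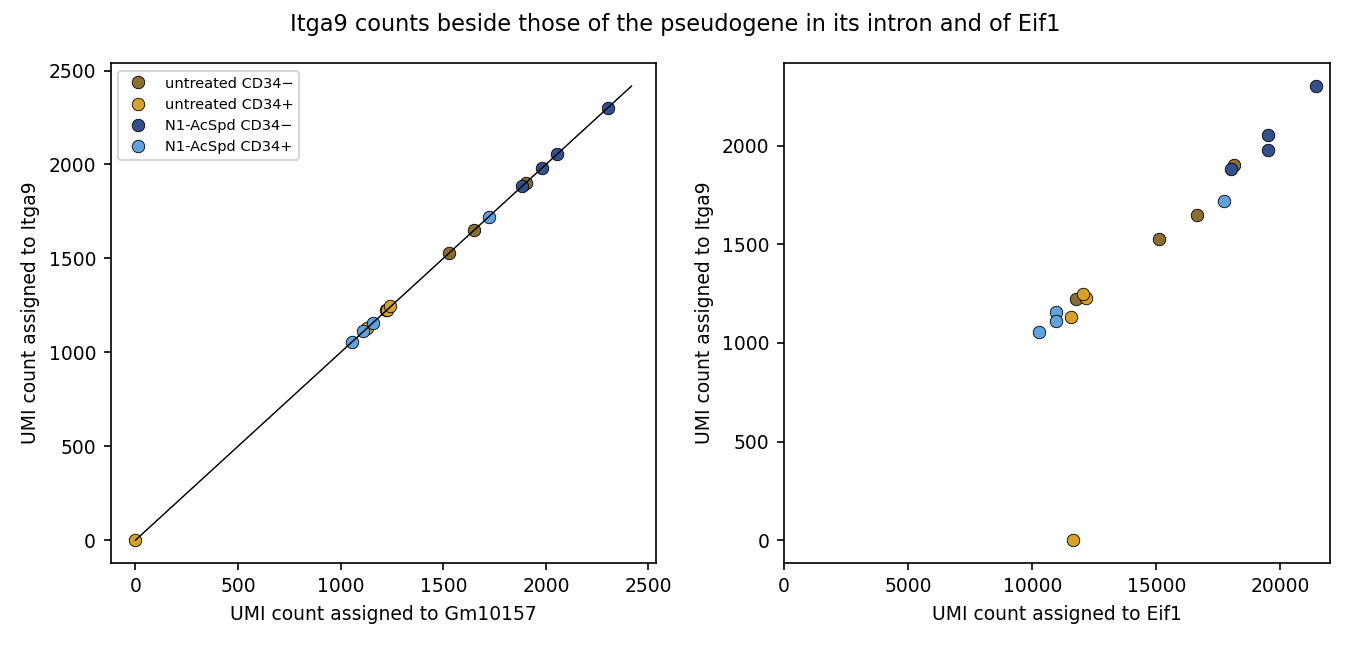
UMI counts assigned to Itga9 in the 16 libraries, plotted against the counts of Gm10157 (left, with the line of equal counts) and of Eif1 (right). Points are libraries coloured by group. On the Itga9 axis 1 untreated CD34+ library is at 0 (an empty entry read as 0), with 11639 Eif1 counts.

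A pair of further genes had few counts. Itga5 (ENSMUSG00000000555, chromosome 15, 103344286 to 103366763), the α chain of the fibronectin receptor, had a mean of 3.56 counts and was not tested. Its counts in mice 1 to 4 were 6, 1, 5 and 2 in untreated CD34− libraries, 3, 2, 3 and 2 in untreated CD34+, 6, 2, 9 and 7 in N1-AcSpd CD34−, and 4, 2, 2 and 1 in N1-AcSpd CD34+ libraries. All 4 groups overlapped, and a fit without the low-count filter called Itga5 in none of the 6 comparisons (smallest unadjusted p 0.0789, edgeR). No difference in Itga5 was thus detected at this depth. The largest value was the cell type effect in N1-AcSpd cells (-1.03, SE 0.545, on the log2 scale).

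Itgb3 (ENSMUSG00000020689, chromosome 11, 104608000 to 104670476), the β chain of the αvβ3 vitronectin receptor, was at 0 in 4 libraries and had 10 to 35 counts in the other 12. In mice 1 to 4 the counts were 0, 10, 0 and 18 in untreated CD34− libraries, 10, 17, 23 and 19 in untreated CD34+, 20, 35, 27 and 0 in N1-AcSpd CD34−, and 0, 26, 25 and 16 in N1-AcSpd CD34+ libraries. The zeros fell in 3 of the 4 groups and in libraries of mice 1, 3 and 4. These zeros were empty entries of the count table read as 0, and may be missing values. Taken as a true count, a 0 allows up to 3 counts, which covers counting error only. Itgb3 was called in no comparison, and its log2 fold changes carried SEs of at least 0.88. Both rest on reading the empty entries as 0.

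The other 7 genes had 18 to 2248 counts per library and are plotted together with Itgb3 in the plot of levels by library.

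**Figure D2:**
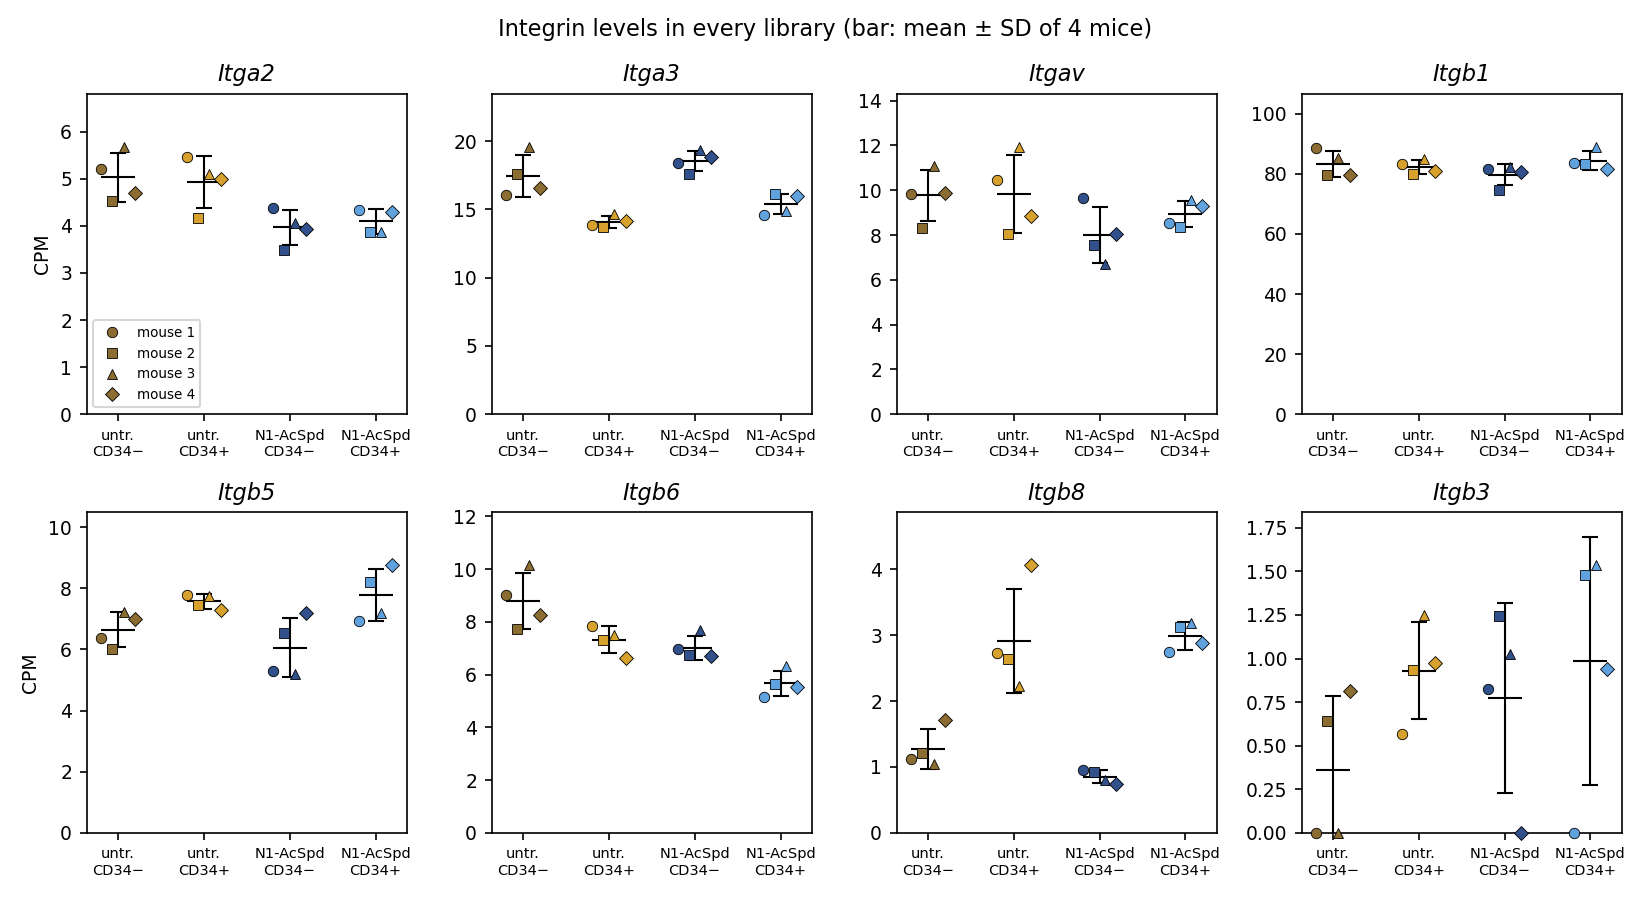
CPM of 8 integrin genes in each library, with 1 marker shape per mouse and 1 colour per group. Horizontal lines are group means and error bars SDs over 4 mice, cut at 0 for Itgb3. Itgb8 in CD34+ libraries, at 2.22 to 4.06 CPM, sits above all CD34− libraries, at 0.738 to 1.71 CPM, and Itgb1 stays between 74.5 and 88.9 CPM in all 16.

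The cell type effect (CD34+ against CD34−) asked how HFSCs and progenitors differ. In untreated cells 3 of the 9 tested members were called, 1 higher (Itgb8) and 2 lower (Itga3, Itgb6) in HFSCs. Among all genes tested 32.1% were called, 16.1% higher and 16.1% lower (3059 of 6123 calls were higher, or 4862 of 6621 with library totals in place of TMM scaling). In N1-AcSpd cells 4 of 9 were called, Itgb8 and Itgb5 higher and Itga3 and Itgb6 lower, beside 33.3% of all genes (16.5% higher and 16.8% lower, 3147 of 6347 calls being higher, or 4794 of 6697 with library totals). The median log2 fold change of the 9 members was -0.0168 in untreated and 0.0829 in N1-AcSpd cells, against 0.0223 and -0.00683 over all genes. With the study's added requirement of an absolute log2 fold change over 0.5, Itgb8 alone passed in either condition, beside 15.3% and 16.8% of all genes.

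Itgb8 (ENSMUSG00000025321, chromosome 12, 119158022 to 119238802, minus strand) encodes β8, which joins αv in a receptor for latent TGF-β. In untreated cells it stood at 1.12, 1.21, 1.04 and 1.71 CPM in the CD34− libraries of mice 1 to 4 and at 2.73, 2.63, 2.22 and 4.06 CPM in their CD34+ libraries. The groups did not overlap, and the libraries of mouse 4 were the highest of both. Itgb8 was 2.29-fold higher in HFSCs (log2 fold change 1.19, SE 0.19, adjusted p = 0.000325, edgeR), with differences of 1.08 to 1.27 within single mice.

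In N1-AcSpd cells Itgb8 stood at 0.949, 0.923, 0.799 and 0.738 CPM in CD34− libraries and at 2.75, 3.13, 3.19 and 2.88 CPM in CD34+ libraries. Again no CD34+ library reached down to a CD34− one. The difference was 3.48-fold (log2 fold change 1.80, SE 0.19, adjusted p = 8.94e-06, edgeR; higher in 4 of 4 mice). These levels rest on 18 to 38 counts per CD34− library and 41 to 79 per CD34+ library. Both calls held in each of the 28 alternative settings, and the log2 fold change ran from 0.98 to 1.37 in untreated and from 1.73 to 1.92 in N1-AcSpd cells.

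**Figure D3:**
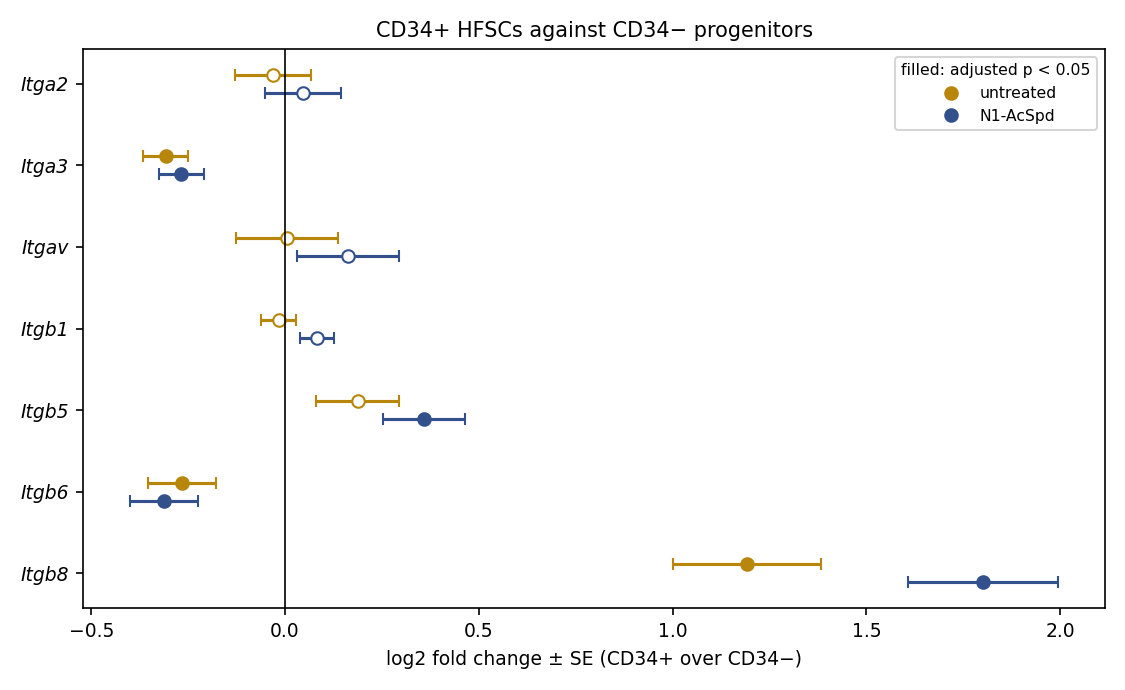
Log2 fold changes of 7 integrin genes between CD34+ and CD34− cells, with SE bars, in untreated and N1-AcSpd cells. Filled points have an adjusted p under 0.05: Itga3, Itgb6 and Itgb8 in both conditions, and Itgb5 in N1-AcSpd cells.

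Itga3 (ENSMUSG00000001507, chromosome 11, 95044474 to 95076801, minus strand), the α chain of the laminin-332 receptor α3β1, was lower in HFSCs. Untreated CD34− libraries of mice 1 to 4 had 16.1, 17.6, 19.6 and 16.6 CPM and CD34+ libraries 13.8, 13.7, 14.6 and 14.2 CPM. N1-AcSpd CD34− libraries had 18.4, 17.6, 19.3 and 18.8 CPM and CD34+ libraries 14.6, 16.1, 14.9 and 16.0 CPM. The cell types did not overlap in either condition. Itga3 fell by 0.31 on the log2 scale in untreated cells (SE 0.058, adjusted p = 0.00112) and by 0.27 in N1-AcSpd cells (SE 0.058, adjusted p = 0.0026, edgeR), in 4 of 4 mice each time. With library totals, which raised the median log2 fold change of all genes to 0.137 and 0.109, the N1-AcSpd value was -0.151 and was not called (adjusted p = 0.0565, edgeR).

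Itgb6 (ENSMUSG00000026971, chromosome 2, 60598292 to 60722643, minus strand) encodes the epithelial β6 chain of αvβ6, the other activator of latent TGF-β. Untreated CD34− libraries had 9.03, 7.73, 10.1 and 8.26 CPM and CD34+ libraries 7.85, 7.30, 7.48 and 6.63 CPM. N1-AcSpd CD34− libraries had 6.98, 6.74, 7.68 and 6.69 CPM and CD34+ libraries 5.16, 5.64, 6.32 and 5.52 CPM. The ranges touched in untreated cells, where the lowest CD34− library (mouse 2) lay under the highest CD34+ library (mouse 1), and were apart in N1-AcSpd cells. Itgb6 fell by 0.27 in untreated HFSCs on the log2 scale (SE 0.088, adjusted p = 0.0322) and by 0.31 in N1-AcSpd HFSCs (SE 0.088, adjusted p = 0.0138, edgeR), in 4 of 4 mice.

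These Itgb6 calls were close to the threshold. In untreated cells the call was lost with library totals (-0.15, adjusted p = 0.199), without the low-count filter (adjusted p = 0.052) and with only the groups compared in the fit (adjusted p = 0.0733, edgeR). It was also lost on leaving out either of 2 untreated CD34− libraries, that of mouse 1 (-0.253) or mouse 3 (-0.191), either of 2 untreated CD34+ libraries, that of mouse 2 (-0.265) or mouse 4 (-0.229), or any 1 of the 4 mice (-0.202 to -0.321). In N1-AcSpd cells it was lost with library totals (-0.195, adjusted p = 0.097, edgeR), on leaving out the CD34+ library that mouse 1 gave under N1-AcSpd (-0.252), and on leaving out mouse 1 (-0.272) or mouse 4 (-0.324) altogether. The direction was the same in all of these fits.

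Itgb5 (ENSMUSG00000022817, chromosome 16, 33829665 to 33949338, plus strand), the β chain of the vitronectin receptor αvβ5, stood at 6.37, 6.01, 7.23 and 6.99 CPM in untreated CD34− libraries and at 7.80, 7.46, 7.75 and 7.30 CPM in untreated CD34+ libraries. In N1-AcSpd cells the values were 5.28, 6.53, 5.21 and 7.18 CPM for CD34− and 6.95, 8.20, 7.18 and 8.75 CPM for CD34+ libraries. Within every mouse the CD34+ library was the higher one in both conditions, while the N1-AcSpd groups overlapped. Itgb5 rose by 0.36 in N1-AcSpd HFSCs on the log2 scale (SE 0.11, adjusted p = 0.0176, edgeR). Its value in untreated cells was 0.19 (SE 0.11, adjusted p = 0.21, edgeR), or 0.303 with library totals, which passed the test (adjusted p = 0.0394). The call in N1-AcSpd cells was lost with only the groups compared in the fit (adjusted p = 0.0605, edgeR), on leaving out 1 of 3 N1-AcSpd libraries (CD34− of mouse 1, 0.300, or of mouse 3, 0.294, and CD34+ of mouse 4, 0.298), and on leaving out all libraries of mouse 1 (0.351), 2 (0.371) or 3 (0.324).

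Itgb1 (ENSMUSG00000025809, chromosome 8, 128685654 to 128733200, plus strand) had the narrowest spread of the tested members, with a root mean square (RMS) of 0.0602 in log2 CPM around its mean over the 16 libraries. Its means were 83.2 ± 4.4 and 82.3 ± 2.25 CPM (SD, n = 4) in untreated CD34− and CD34+ libraries and 79.7 ± 3.5 and 84.4 ± 3.16 CPM in N1-AcSpd libraries. Every neighbouring pair of groups overlapped when ordered by mean. The 95% interval of the cell type effect ran from -0.11 to 0.079 on the log2 scale in untreated cells and from -0.013 to 0.18 in N1-AcSpd cells. With library totals the N1-AcSpd value was 0.20 and passed the test (adjusted p = 0.00238, edgeR), so the result for Itgb1 holds relative to TMM scaling.

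Itgav (ENSMUSG00000027087, chromosome 2, 83724397 to 83806916, plus strand) stood at 9.85, 8.31, 11.1 and 9.88 CPM in untreated CD34− and at 10.5, 8.06, 11.9 and 8.84 CPM in untreated CD34+ libraries. In N1-AcSpd cells it stood at 9.66, 7.56, 6.69 and 8.04 CPM in CD34− and at 8.54, 8.37, 9.57 and 9.28 CPM in CD34+ libraries. The groups overlapped throughout, and neither cell type effect was called (log2 fold change 0.0052, SE 0.13, and 0.16, SE 0.13). The antisense model Gm13684 shares exon sequence with Itgav and held 320 counts beside 3067 of Itgav. Taking its counts away called no comparison either.

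Itga2 (ENSMUSG00000015533, chromosome 13, 114833081 to 114932100, minus strand), the α chain of the collagen receptor α2β1, differed little between cell types. Its values were 5.21, 4.54, 5.67 and 4.69 CPM in untreated CD34− libraries and 5.46, 4.17, 5.10 and 4.99 CPM in untreated CD34+ libraries. In N1-AcSpd cells they were 4.38, 3.48, 4.07 and 3.94 CPM for CD34− and 4.35, 3.87, 3.87 and 4.29 CPM for CD34+ libraries. The cell types overlapped in both conditions. By treatment, 7 of the 8 untreated libraries lay above every N1-AcSpd library. The 95% interval of the cell type effect was -0.24 to 0.18 on the log2 scale in untreated and -0.16 to 0.26 in N1-AcSpd cells.

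The 6 HFSC markers, Cd34 among them, summed to 49.0 to 70.8 CPM in CD34− and 147 to 192 CPM in CD34+ libraries. Of these, Tcf3 was matched by symbol alone to ENSMUSG00000020167, at group means of 15.1 to 22.2 CPM. Whether that gene is the TCF3 factor of hair follicle stem cells was not checked. The 7 markers of differentiated keratinocytes moved the other way and summed to 350 to 487 CPM in untreated CD34− and 94.4 to 111 CPM in untreated CD34+ libraries, and to 433 to 633 CPM and 106 to 142 CPM in N1-AcSpd cells. Most of the untreated CD34− sum was Sprr1b (mean 324 CPM). Tgm1 (3159 counts) overlaps the antisense model Gm49067 (3144 counts), and Flg (7722 counts) overlaps the pseudogene Rplp0-ps1 (5703 counts). Fibroblast markers summed to 0.516 to 1.6 CPM in CD34− and 0.171 to 0.713 CPM in CD34+ libraries. Their part in the differences of Itgb8, Itga3, Itgb6 and Itgb5 was not tested. In bulk libraries of sorted cells, fewer cells with a transcript and less of it per cell cannot be told apart.

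The treatment effect (N1-AcSpd against untreated) asked how supplementation changed each cell type. edgeR called none of the 9 tested members in CD34− cells, where 0.614% of all genes were called, and none in CD34+ cells, where 0.325% were. At an unadjusted p under 0.05 there were 4 members in CD34− cells (Itga2, Itgb6, Itgb8 and Itgav, all at a negative value), beside 13.6% of all genes, and 2 in CD34+ cells (Itga2 and Itgb6, both negative), beside 13.2%. DESeq2 called 0 members in either cell type. With the mouse as a block, which uses that each animal gave a library to every group, 2 members were called in CD34− cells, where the same fit called 1.84% of all genes, and 1 in CD34+ cells, where it called 0.798%. These were Itgb6 (-0.321, adjusted p = 0.0337, edgeR) and Itga2 (-0.343, adjusted p = 0.0408, edgeR) in CD34− cells and Itgb6 (-0.372, adjusted p = 0.0312, edgeR) in CD34+ cells.

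Averaged over both cell types, 2 of 9 tested members were called, both lower with N1-AcSpd, beside 4.87% of all genes (2.7% higher and 2.17% lower). The median log2 fold change of the members was -0.0509, against -0.00767 over all genes. No member passed with an added absolute log2 fold change over 0.5.

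Itgb6 fell by 0.35 on the log2 scale averaged over the cell types (SE 0.062, adjusted p = 0.0087, edgeR), a 1.27-fold lower level. The value was -0.32 (SE 0.087) in CD34− and -0.37 (SE 0.089) in CD34+ cells, negative in 4 of 4 mice in each. As listed above, every N1-AcSpd CD34− library had less Itgb6 than every untreated CD34− library, and the CD34+ libraries were apart in the same way. Ordered by mean the levels were highest in untreated progenitors (8.79 ± 1.04 CPM, SD, n = 4), then untreated HFSCs (7.32 ± 0.51) and N1-AcSpd progenitors (7.02 ± 0.46), whose ranges overlapped, and lowest in N1-AcSpd HFSCs (5.66 ± 0.48). The call was lost without mouse 1 (-0.300, adjusted p = 0.107), mouse 2 (-0.366, adjusted p = 0.0582) or mouse 4 (-0.368, adjusted p = 0.0501, edgeR).

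Itga2 fell by 0.31 averaged over the cell types (SE 0.070, adjusted p = 0.0255, edgeR), a 1.24-fold lower level. The value was -0.34 (SE 0.098) in CD34− and -0.27 (SE 0.099) in CD34+ cells, negative in 4 of 4 mice in each. The call was lost without the low-count filter (adjusted p = 0.0525, edgeR). It was also lost on leaving out either untreated library of mouse 1 (CD34− -0.297, CD34+ -0.279), 1 of 2 N1-AcSpd libraries (CD34− of mouse 4, -0.304, and CD34+ of mouse 3, -0.292), or the whole of mouse 1 (-0.311), mouse 3 (-0.254) or mouse 4 (-0.328). Averaged over the cell types, 2 of the 7 differentiated keratinocyte markers rose with N1-AcSpd. In the same comparison 1 of the 5 keratinocyte and 1 of the 6 HFSC markers fell. The list medians were 0.297, -0.000203 and -0.12, in that order. The keratinocyte marker that fell was Krt15 (-0.368), at means of 38.6 CPM in untreated CD34− and 393 CPM in untreated CD34+ libraries. Over all genes 2.7% rose and 2.17% fell in the averaged comparison. In CD34− cells alone 1 of the 6 HFSC markers fell, beside 0.241% of all genes. The part of these markers in the differences of Itgb6 and Itga2 was not tested.

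The promoters of Itga2 and Itgb6 are shown because these were the members that fell together with N1-AcSpd. RefSeq start regions (GRCm38.p6, 250 bases before to 50 bases after the start) matched 9 of the 10 members by name, all except Itgb3. The start in the Itga9 window lay 105002 bases from the annotated start of the gene, and that of Itgb8 526 bases. Capitals mark CG dinucleotides, of which the Itga2 window (13:114932051-114932350, minus strand) holds 13 and the Itgb6 window (2:60722554-60722853, minus strand) 12, against a median of 7 over all 32851 windows (quartiles 3 and 20).
Itga2: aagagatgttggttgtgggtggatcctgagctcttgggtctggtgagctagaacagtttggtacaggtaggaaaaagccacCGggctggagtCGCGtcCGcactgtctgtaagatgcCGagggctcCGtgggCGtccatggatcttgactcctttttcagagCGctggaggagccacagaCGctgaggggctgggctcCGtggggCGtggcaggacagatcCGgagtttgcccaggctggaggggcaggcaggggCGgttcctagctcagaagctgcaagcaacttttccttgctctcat
Itgb6: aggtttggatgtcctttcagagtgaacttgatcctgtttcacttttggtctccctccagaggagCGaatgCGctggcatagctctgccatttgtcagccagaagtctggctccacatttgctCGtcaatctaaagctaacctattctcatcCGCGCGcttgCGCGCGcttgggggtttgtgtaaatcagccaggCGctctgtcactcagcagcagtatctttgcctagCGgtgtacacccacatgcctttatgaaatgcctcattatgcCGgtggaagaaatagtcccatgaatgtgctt

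On either strand, the TATA box letters TATAAA were in neither window and are in 13.6% of all windows. The GC box letters GGGCGG were in the Itga2 window and not in the Itgb6 window, and are in 35.7% of all windows. Such a match describes letters only.

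**Figure D4:**
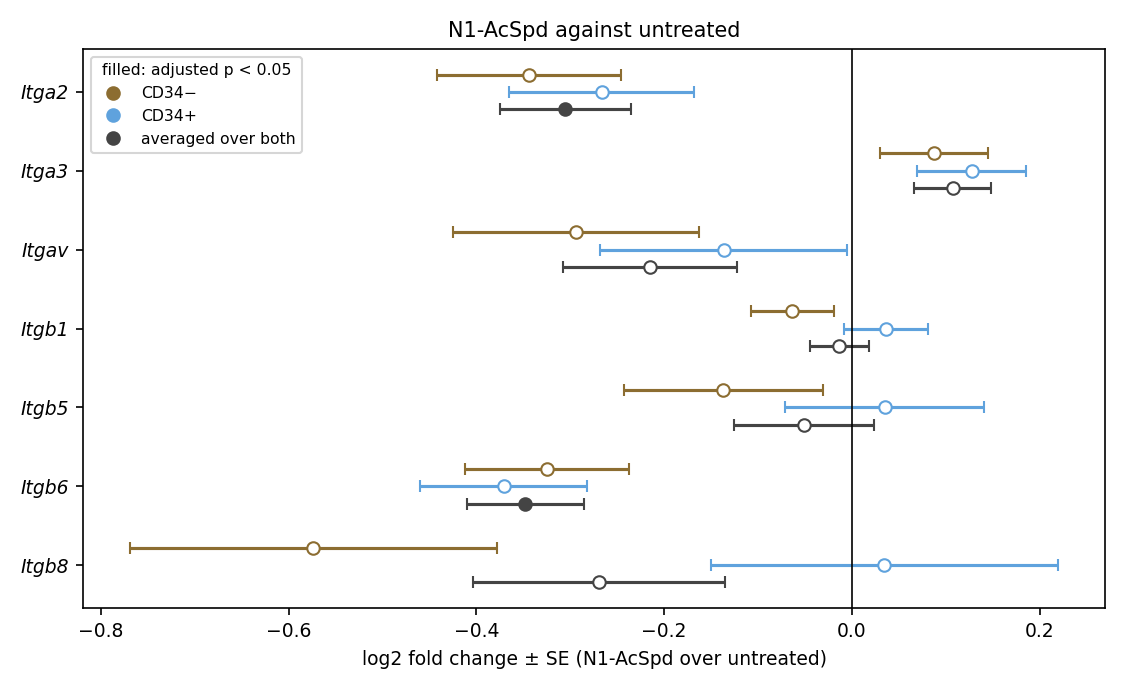
Log2 fold changes of 7 integrin genes between N1-AcSpd and untreated cells, with SE bars, in CD34− cells, CD34+ cells and averaged over both. Filled points have an adjusted p under 0.05, which only the averaged values of Itga2 (-0.31) and Itgb6 (-0.35) reached.

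Itgb8 gave unlike values by cell type. In CD34− cells its treatment effect was -0.57 (SE 0.20, unadjusted p = 0.0111, adjusted p = 0.204, edgeR), negative in 4 of 4 mice. Within single mice it was -0.231, -0.387, -0.371 and -1.19, and without mouse 4, which had the last of these, the fitted value was -0.332. The N1-AcSpd libraries (0.738 to 0.949 CPM) lay below all untreated ones (1.04 to 1.71 CPM). In CD34+ cells the value was 0.035 (SE 0.19), with the libraries of both conditions overlapping. The difference between these effects, the interaction, was 0.61 (SE 0.27, 95% interval 0.03 to 1.19, unadjusted p = 0.0405, adjusted p = 1.0, edgeR) and positive in 4 of 4 mice. No member was called in the interaction by edgeR or DESeq2, 1 had an unadjusted p under 0.05, and 0% of all genes were called (799 at an unadjusted p under 0.05).

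Of the remaining members, Itga3 had treatment values of 0.088 (SE 0.058) in CD34− and 0.13 (SE 0.058) in CD34+ cells and 0.11 (SE 0.041, adjusted p = 0.149, edgeR) averaged. When mouse 3 was left out of the untreated CD34− group, the averaged value of Itga3 was 0.138 and passed the test (adjusted p = 0.0409, edgeR). Itgav had an averaged value of -0.21 (SE 0.093, adjusted p = 0.202, edgeR), which was -0.242 after the counts of Gm13684 were taken away. It was negative in 4 of 4 mice, yet mouse 3 had -0.521 and the others -0.161, -0.0409 and -0.113, and without mouse 3 it was -0.104. Itgb5 and Itgb1 had averaged values of -0.051 (SE 0.075) and -0.013 (SE 0.031), with 2 of 4 mice in that direction for each.

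The genes most like Itgb8 and Itga3, which were called in both cell type effects, were sought among 12431 genes averaging 50 or more counts, by the RMS difference of log2 CPM over the 16 libraries, each gene centred on its own mean. For Itgb8 this was Nfib, a transcription factor gene, at 0.228, where the RMS of Itgb8 around its own mean was 0.797. For Itga3 it was Gmpr2, a GMP reductase gene, at 0.0612 (own RMS 0.168).

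The hemidesmosomal subunits served for comparison. Itga6 fell by 0.34 in untreated HFSCs on the log2 scale (SE 0.06, adjusted p = 0.0009, edgeR), while Itgb4 was at 0.02 (SE 0.06) and was not called. Among the 17 integrin genes outside the 10 members, 15 were in the table and 8 were tested. In untreated cells 4 of these 8 were called, 2 in each direction, beside 32.1% of all genes. The median of the 8 was 0.112. The ends were Itga8 (3.36, SE 0.40) and Itgam (-0.48, SE 0.14), yet Itgam (1229 counts) overlaps Gm49368 (9974 counts), Itga8 had only 162 counts beside 109 of an antisense model, and Itgae, also higher, had 1056 counts beside 1033 of Haspin on the opposite strand. Over 50% of the counts of 3 of these 4 called genes, all except Itga6, could thus belong to an overlapping gene. In N1-AcSpd cells 5 of the 8 were called, 3 higher and 2 lower, beside 33.3% of all genes. Of these 5, 4 have such an overlap (Itga1 in addition). edgeR called 0 for the treatment effect in CD34− cells, in CD34+ cells or averaged, beside 0.614%, 0.325% and 4.87% of all genes. At an unadjusted p under 0.05 there were 1, 1 and 2, beside 2592, 2505 and 3953 of the 19049 genes.

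The members bind matrix proteins, of whose genes 18 were tested. In untreated cells 15 of these were called, 9 higher and 6 lower in HFSCs, beside 32.1% of all genes. The median log2 fold change of the 18 was 0.405, against 0.0223 over all genes. The largest rise among those called was that of Postn (periostin, a ligand of αv integrins), at 3.37 (SE 0.17, adjusted p = 5e-08, edgeR), and the lowest value that of Spp1 (osteopontin), at -1.5 (SE 0.53, adjusted p = 0.045, edgeR). In N1-AcSpd cells 13 of 18 were called, again 9 of them higher, beside 33.3% of all genes. In both counts 2 of the higher genes, Col4a1 and Col4a2, could owe over 50% of their counts to each other or, for Col4a1 (451 counts), to the antisense model Gm15418 (423 counts). Averaged over the cell types, 1 ligand was lower with N1-AcSpd, Postn at -0.53 (SE 0.11, adjusted p = 0.02, edgeR), beside 2.17% of all genes.

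Of 13 tested genes for TGF-β activation (latent TGF-β, its binding proteins, receptors and targets), 6 were called in untreated cells, beside 32.1% of all genes. Of these 6, 4 were higher and 2 lower, and the median of the 13 was 0.168. Ltbp4, which binds latent TGF-β in the matrix, rose by 1.25 (SE 0.11, adjusted p = 2e-06, edgeR) in HFSCs, and Tgfb1, the TGF-β1 gene, fell by 0.76 (SE 0.14, adjusted p = 0.0012, edgeR). In N1-AcSpd cells 7 of 13 were called, 4 higher and 3 lower, beside 33.3% of all genes. Overlapping genes could hold over 50% of the counts of 2 called genes in either condition, Ltbp3 and Tgfbr3. Averaged over the cell types, 1 was lower with N1-AcSpd, beside 2.17% of all genes. It was Lrrc32 (-0.89, SE 0.23), which anchors latent TGF-β at the cell surface.

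Cytoplasmic adaptors, which tie integrin tails to actin, were called in 10 of 18 cases in untreated cells, beside 32.1% of all genes. Of these 10, 6 were higher and 4 lower, and the median of the 18 was 0.0974. Tns3 (tensin 3) rose by 1.02 (SE 0.15, adjusted p = 0.00015, edgeR), and Parvb (β-parvin) fell by 0.97 (SE 0.12, adjusted p = 3.4e-05, edgeR). In N1-AcSpd cells 12 of 18 were called, 7 higher and 5 lower, beside 33.3% of all genes. Averaged over the cell types, 5 of 18 were lower with N1-AcSpd and 0 higher, with a median of -0.0509, against -0.00767 over all genes, of which 4.87% were called and 2.17% were called lower. These were the kindlins Fermt2 (-0.32), Fermt1 (-0.26), talin 1 (Tln1, -0.24), α-actinin 1 (Actn1, -0.22) and zyxin (Zyx, -0.21). Tln1 (4228 counts) overlaps Creb3 (7460 counts) on the opposite strand, and Ilk and Vcl, called in untreated cells, have overlaps of this kind. The genes given here with a treatment effect were named after their values were seen.

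Among 4 tested genes whose proteins bind integrin tails and hold integrins inactive, Dok1 (0.97, SE 0.25) and Sharpin (0.27, SE 0.10) were higher in untreated HFSCs. Over all genes 16.1% were called higher there. The actin crosslinker filamin A (Flna) was the only gene of the 4 called in N1-AcSpd cells, where it was lower in HFSCs (-0.22, SE 0.05), and the only one called for treatment, lower in CD34+ cells (-0.25, SE 0.05) and averaged (-0.21, SE 0.03). The shares of all genes called in these 3 comparisons were 33.3%, 0.325% and 4.87%. Among 8 lateral partners, 3 were higher in untreated HFSCs, from Cd151, a tetraspanin that associates with α3β1 (0.23, SE 0.06), to Cd47 (0.80, SE 0.09), and 4 were higher in N1-AcSpd HFSCs. The shares of all genes called higher were 16.1% and 16.5%. Averaged over the cell types, 1 of the 8 was higher with N1-AcSpd, the tetraspanin Cd9 (0.18, SE 0.03), beside 2.7% of all genes. The plot by gene list shows the spread of each list in untreated cells.

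**Figure D5:**
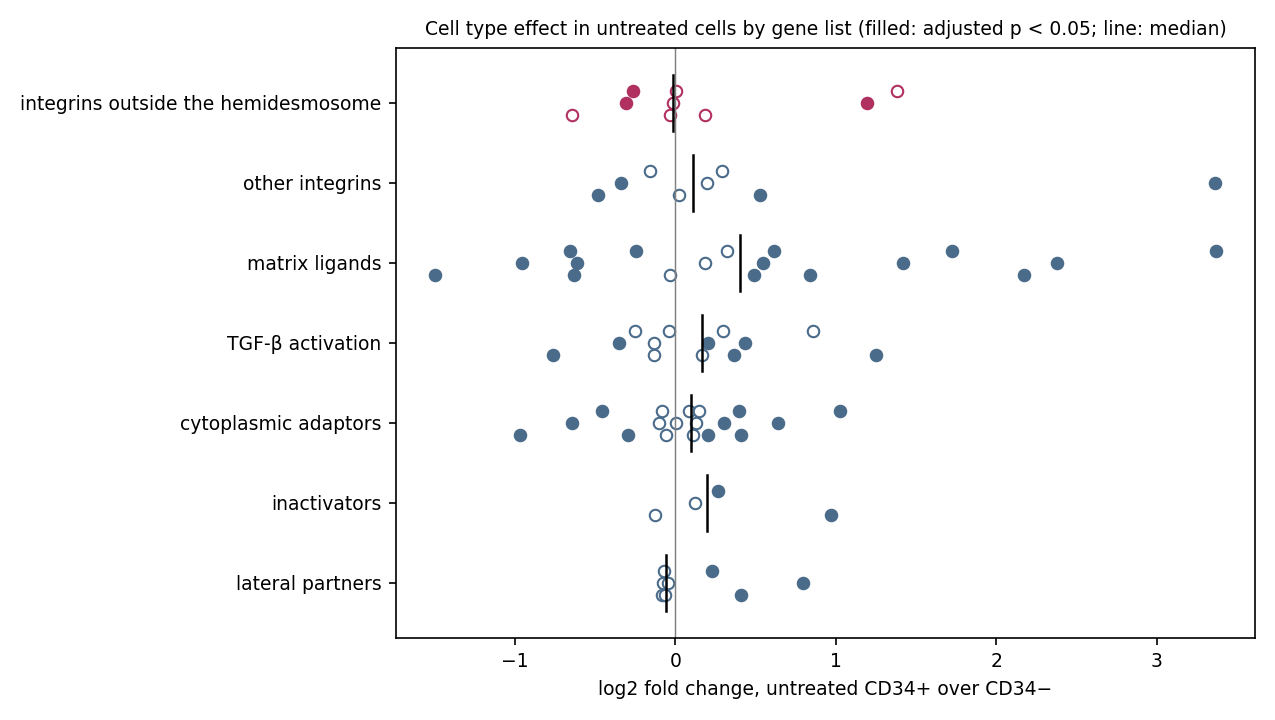
Log2 fold change of each tested gene between untreated CD34+ and CD34− cells, by gene list, with the median of the list as a line. Filled points have an adjusted p under 0.05. The members, in red, include Itgb3 (1.38) and Itga9 (-0.64, on counts shared with Gm10157) as open points. Of the 18 matrix ligands 15 are filled, where 32.1% of all genes were called.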

How the data were processed

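The authors separated reads by barcode with FLEXBAR, mapped the second read of each pair to mm10 with kallisto, assigned tags with BEDTools and deposited UMI counts per gene with no normalization. The submitters' processing notes name kallisto 0.45.0 and FastQC 0.11.7, and the annotation release is not given in the sources used here. The 156050 empty entries of the count table were read as 0, and the table held no other zeros. Whether an empty entry means no count or a missing value is not given. Positions came from GENCODE on GRCm38 (mm10). Members and gene lists were chosen with earlier results of these data known.

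Genes averaging 5 or more counts (19049) were tested in edgeR 4.0.16 (R 4.3.3, TMM, quasi-likelihood, 1 fit of 16 libraries). The procedure was tried on simulated log2 fold changes of 1 and 2 in either direction, and smaller changes were not simulated. SE was taken as |log2 fold change| over √F. Named genes were all 10 members, and of each list the called genes with the highest and lowest value in untreated cells. Itga6 and Itgb4 were added with their values known. Alternatives were DESeq2 1.42.0 (the study's tool), DESeq2 size factors, library totals, filterByExpr, no filter, the mouse as a block, thinning, only the groups compared, the study's fold threshold, and leaving out each library and mouse. Taking Gm13684 from Itgav was added after seeing the data. The labels' mouse entry pairs the libraries. Deviations of same-mouse libraries correlated at a mean r of 0.00733 (-0.0582 to 0.0769, 24 pairs). Those of different mice correlated at a mean r of -0.00244 (-0.0685 to 0.104, 72 pairs), a range that contains the former. Counts of no 2 libraries of a group matched within sampling noise. The gene most like Itgb6 is not reported here.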

Additional observations from a re-analysis of the deposited data

Results flagged for a closer look

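Of the 40 sets of 4 libraries (10 genes in 4 groups), 1 held a library that stood apart from the others by Dixon's ratio, where chance alone marks about 1 in 20. It was the untreated CD34+ library of mouse 1, in which Itga9 was at 0.0 CPM while the other 3 libraries of the group had 61.2 to 67.3 CPM. Gm10157, whose counts those of Itga9 repeat, was at 0 in the same library. Both were empty entries read as 0, so a missing value cannot be told apart from no count.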

How the results depend on the processing

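With the mouse as a replicate block, 2 members were called for the treatment effect in CD34− cells and 1 in CD34+ cells, in place of 0, and the log2 fold changes of Itgb3 turned to -0.139 (cell type, N1-AcSpd) and -0.257 (treatment, CD34+). The block changed no other call of a member. With the added fold threshold of 0.5 the members called numbered 1 and 1 for the cell type effects and 0 for the averaged treatment effect, and without the low-count filter the last was 1. Library totals turned the untreated cell type values of Itga2 (0.0868) and Itgb1 (0.0985). That of Itgav turned with DESeq2 (-0.0189), DESeq2 size factors (-0.0142), no filter (-0.000855) and thinning (-0.0319). Thinning also turned Itgb1 (0.00856, untreated) and Itga2 (-0.0281, N1-AcSpd). None of the turned values was called, and the cause was not tested.

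Leaving out libraries or mice gave 0 to 3 members for the averaged treatment effect, 2 to 4 for the cell type effect in untreated and 3 to 5 in N1-AcSpd cells. The counts of 4 and 5 came without the untreated CD34+ library of mouse 1, when the signal that Itga9 shares with Gm10157 was called. That signal was also called without mouse 1 and, in N1-AcSpd cells, with only the groups compared. Uncalled values that changed sign ranged as follows. Untreated cell type values ran from -0.0825 to 0.0421 for Itga2, from -0.112 to 0.0888 for Itgav and from -0.0437 to 0.0134 for Itgb1. In N1-AcSpd cells they ran from -0.0114 to 0.0973 for Itga2 and from -0.0805 to 0.789 for Itgb3. Treatment values in CD34+ cells ran from -0.232 to 0.514 for Itgb3, from -0.0444 to 0.103 for Itgb5 and from -0.105 to 0.256 for Itgb8. Interactions ran from -0.0225 to 0.0923 for Itga3, from -0.0758 to 0.55 for Itga9 and from -0.125 to 0.0234 for Itgb6. Averaged treatment values ran from -0.0265 to 0.00197 for Itgb1 and from -0.124 to 0.031 for Itgb5.

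Over all genes, the treatment effect in CD34− cells called 117 genes, or 558 with DESeq2, 351 with the block, 47 after thinning, 35 without the filter and 0 with only the groups compared (2645 at an unadjusted p under 0.05). In CD34+ cells it called 62, or 423, 152, 37, 35 and 23. Averaged, it called 928, or 1585 with DESeq2, 1551 with the block and 445 without the filter, and the interaction 0, or 72 with DESeq2. Itga5, Itgb3 and Itgb8 had the fewest counts of the members.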
